A study of Mus musculus with 27 samples.

Results

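The 8 genes described here write or erase 5-methylcytosine in DNA. They were taken as a list fixed by name, Dnmt1, Uhrf1, Hells, Dnmt3a, Dnmt3b, Tet1, Tet2 and Tet3, and not by any measured value, and they are 8 of the 23007 genes with a row in every library of at least 1 experiment. The cells were Setdb1 cKO iMEFs, immortalized mouse embryonic fibroblasts in which the H3K9 methyltransferase gene Setdb1 is deleted when 4-hydroxytamoxifen (4OHT) is added. All 27 libraries came from this line, so the untreated cells carry the same conditional allele. In the total RNA experiment, 3 untreated libraries were compared with 3 libraries collected on day 5 after 4OHT, which was given for the first 4 days, and with 3 libraries that the labels place more than 2 weeks after 4OHT, called long-term KO here. In the siRNA experiment, 2 libraries each were made from cells given control siRNA (siCtrl), Dnmt1 siRNA (siDnmt1), 4OHT with control siRNA, or 4OHT with Dnmt1 siRNA, and harvested on day 6 after 2 transfections. In the inhibitor experiment, 2 libraries each were made from untreated cells, cells given 150 nM of the histone deacetylase inhibitor TSA for 24 h, cells given 1 µM of a MEK inhibitor (PD; the labels spell it both PD0325901 and PD0325091) for the last 24 h, cells on day 6 after 4OHT, and cells given both 4OHT and PD. No source used here says whether replicates were separate cultures, so p-values measure only the spread between these libraries.

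Methylation of CpG sites is kept through cell division by copying it onto the new strand after replication. Dnmt1 is the methyltransferase that does this, Uhrf1 recognises the hemimethylated site and brings Dnmt1 to it, and Hells (also called Lsh) is a remodelling ATPase needed for methylation of repeats. Dnmt3a and Dnmt3b methylate DNA that carries no mark yet, and are known for setting the pattern in the early embryo. Tet1, Tet2 and Tet3 are dioxygenases that oxidise 5-methylcytosine, which leads to its loss by dilution or by base excision repair. In fibroblasts methylation is one of the layers that silence endogenous retroviruses, which is why Dnmt1 was knocked down beside the deletion of Setdb1.

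The promoters of the maintenance genes held E2F-type letters, which those of the other members did not, so the window of each maintenance gene that held them is printed, with that of Tet3 for comparison. Each window runs from 250 bases before to 50 after a start site, 300 bases in all, read 5′ to 3′ on the strand of the gene from RefSeq (GRCm38.p6). Capitals mark every match, on either strand, to the E2F-type letters TTTCCCGC, TTTGGCGC or TTTCGCGC or to CCAAT, and 2 matches to CCAAT on opposite strands overlap in the Dnmt1 window. The windows lie at chr9:20952574-20952873 (Dnmt1, minus strand), chr17:56304063-56304362 (Uhrf1, plus strand), chr19:38930740-38931039 (Hells, plus strand) and chr6:83441629-83441928 (Tet3, minus strand).
Dnmt1: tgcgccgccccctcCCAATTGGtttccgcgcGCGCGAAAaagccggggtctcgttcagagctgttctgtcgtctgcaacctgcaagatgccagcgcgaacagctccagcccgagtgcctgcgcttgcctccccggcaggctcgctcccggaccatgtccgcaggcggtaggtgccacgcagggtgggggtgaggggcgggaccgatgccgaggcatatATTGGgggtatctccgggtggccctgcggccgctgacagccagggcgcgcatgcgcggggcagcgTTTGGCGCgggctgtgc
Uhrf1: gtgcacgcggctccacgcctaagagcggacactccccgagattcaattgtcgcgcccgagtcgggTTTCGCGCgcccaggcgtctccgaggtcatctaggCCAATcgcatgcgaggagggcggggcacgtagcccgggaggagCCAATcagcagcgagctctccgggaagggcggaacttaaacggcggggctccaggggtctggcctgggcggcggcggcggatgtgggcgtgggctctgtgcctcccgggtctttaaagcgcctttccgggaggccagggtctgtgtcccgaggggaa
Hells: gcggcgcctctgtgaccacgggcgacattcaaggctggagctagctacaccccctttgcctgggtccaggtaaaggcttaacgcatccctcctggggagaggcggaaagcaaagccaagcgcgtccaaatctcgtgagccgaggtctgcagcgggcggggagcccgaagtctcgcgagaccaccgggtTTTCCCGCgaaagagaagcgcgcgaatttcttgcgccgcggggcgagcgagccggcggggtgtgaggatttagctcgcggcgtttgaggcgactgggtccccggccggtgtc
Tet3: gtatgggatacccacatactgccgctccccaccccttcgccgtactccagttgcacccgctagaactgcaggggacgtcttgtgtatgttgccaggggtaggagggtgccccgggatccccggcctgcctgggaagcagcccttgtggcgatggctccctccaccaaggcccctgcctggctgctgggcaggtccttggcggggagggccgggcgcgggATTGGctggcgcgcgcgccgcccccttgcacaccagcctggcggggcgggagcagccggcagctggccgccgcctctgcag

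All 8 members had at least 1 window in the RefSeq table, 13 in all, and E2F-type letters were found in 3 of these, 1 each for Dnmt1, Uhrf1 and Hells. The Dnmt1 window held 2 such matches, TTTCGCGC on the minus strand at position -219 and TTTGGCGC on the plus strand at position 34 from the start site. The Uhrf1 window held TTTCGCGC at position -185 and the Hells window TTTCCCGC at position -62. No match lay in the 3 windows of Dnmt3a or in the windows of Dnmt3b, Tet1, Tet2 and Tet3. Of 32851 windows in the table, 1.84% held any of these E2F-type letters and 37.4% held CCAAT. The printed windows hold 33 CpG sites for Dnmt1, 33 for Uhrf1, 34 for Hells and 22 for Tet3, where the median over all windows of the table was 7. Windows of other members held more, up to 57 for Tet2 and 47 for Dnmt3a, and windows of the maintenance genes without E2F-type letters held fewer, 2 and 12 for Dnmt1 and 12 for Uhrf1. A match is a string of letters and says nothing of a factor at the site.

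FPKM is the number of fragments scaled to transcript length and to the size of the library, as Cufflinks gave it on the mm9 genome. The depth implied by the width of the deposited intervals was 30.2 to 34.3 M fragments in the total RNA libraries, 13.1 to 14.9 M in the siRNA libraries and 10.5 to 12.2 M in the inhibitor libraries. Of 12 fibroblast marker genes with rows of their own, 10 reached 1 FPKM in every library. Of 8 haematopoietic markers listed, 6 had rows of their own, and all 6 stayed under 1 FPKM in every library. Cd68 and Hbb-b1 were not found or shared a row. In each experiment 1 marker of this list was tested, shared rows included. It was called higher with TSA (log2 fold change 3.77) and lower in long-term KO cells (-0.91 against untreated cells). Setdb1, the deleted gene, was listed at 0 in 4OHT day 6 replicate 1 and in both libraries given 4OHT and PD, and at 5.30 FPKM in 4OHT day 6 replicate 2, against 8.76 and 10.1 FPKM in the untreated libraries of that experiment. In the total RNA experiment it ranged from 5.16 to 5.95 FPKM in untreated cells, from 4.16 to 6.52 on day 5 and from 6.96 to 7.32 in long-term KO cells, and it spanned 5.00 to 7.58 FPKM over the siRNA libraries. These values cover the whole gene, the deleted part is not given in the sources used here, and so the gene's FPKM did not check the 4OHT labels in those libraries. The file of PD replicate 2 names 4OHT and PD in its title line, whereas its GEO label gives PD alone. The label was followed, and Setdb1 stood at 5.34 and 5.56 FPKM in the 2 libraries labelled PD.

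Dnmt1, Uhrf1 and Hells were the abundant members (the plot of levels by library). In the 23 libraries without Dnmt1 siRNA, the lowest of the 3 stood 6.30 to 25.9 times above the highest of the other 5 members. Over all 27 libraries the median was 78.3 FPKM for Dnmt1, 74.9 for Uhrf1, 79.0 for Hells, 3.96 for Dnmt3a, 1.06 for Dnmt3b, 0.829 for Tet1, 0.999 for Tet2 and 4.51 for Tet3. In some libraries Cufflinks joined a member to its neighbour in 1 row: Dnmt1 with S1pr2 in total RNA, and Hells with Tbc1d12 in total RNA and siRNA libraries. There the sum of the 2 genes is given for every library of that experiment. In the untreated total RNA libraries, Dnmt1 alone stood at 85.5, 85.7 and 89.0 FPKM and S1pr2 at 11.8, 13.0 and 12.3 FPKM.

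**Figure D1:**
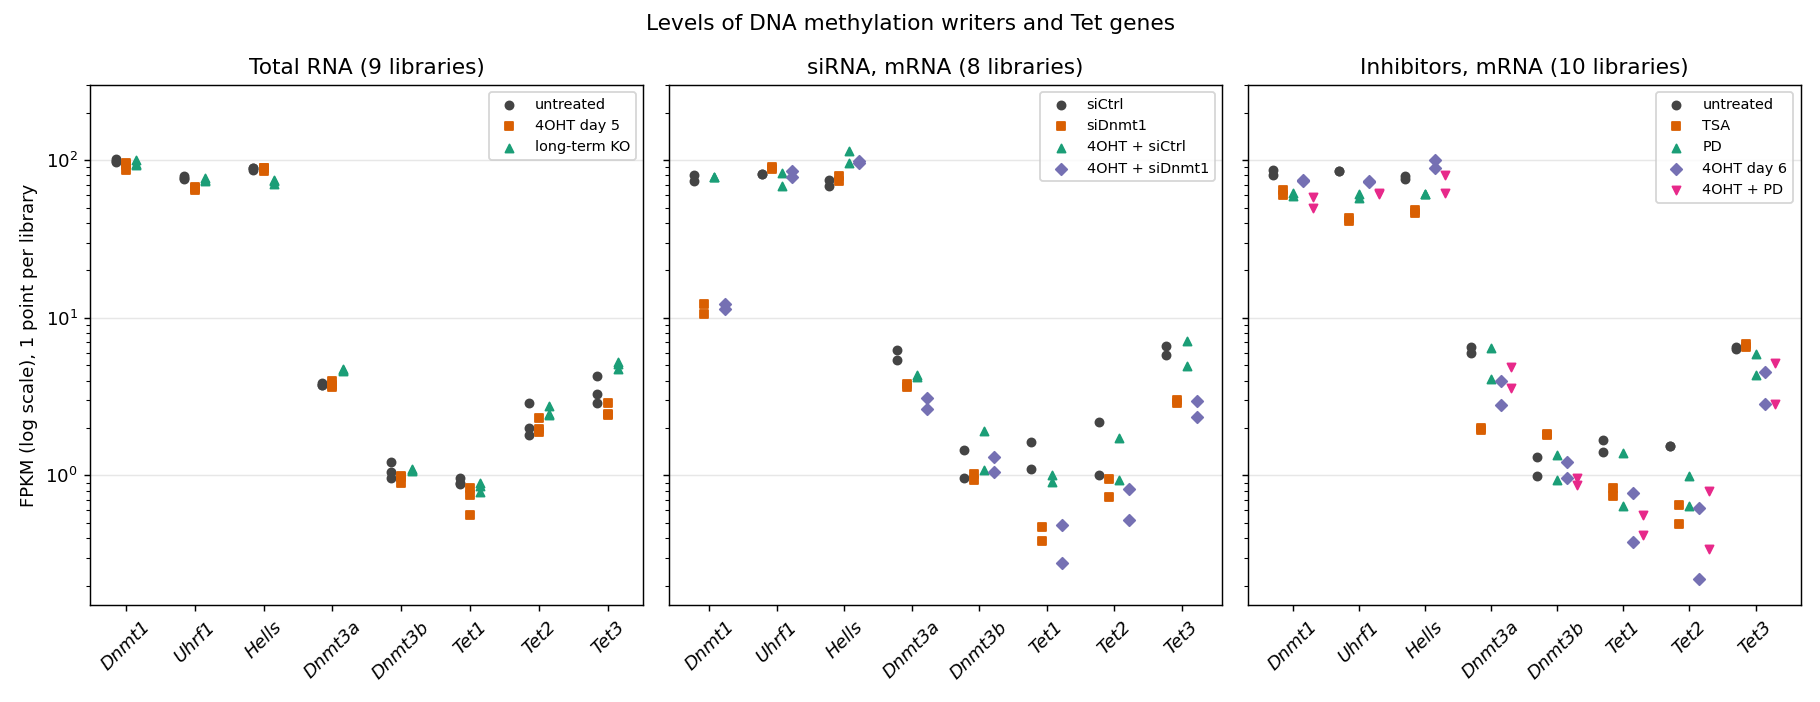
FPKM of the 8 genes (log axis) in each of the 27 libraries, grouped by condition within the 3 experiments, 1 point per library. Dnmt1, Uhrf1 and Hells lie at least 6.30 times above Dnmt3a, Dnmt3b and the Tet genes in the 23 libraries without Dnmt1 siRNA, and Dnmt1 drops to between 10.6 and 12.2 FPKM in the 4 libraries given Dnmt1 siRNA.

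The order of the levels within a group was partly fixed. In untreated total RNA cells it ran Dnmt1 with S1pr2, Hells with Tbc1d12, Uhrf1, Dnmt3a, Tet3, Tet2, Dnmt3b and Tet1, where Dnmt3a overlapped Tet3 and Tet3 overlapped Tet2. In siCtrl cells and in untreated cells of the inhibitor experiment Uhrf1 was first, with overlapping values of Dnmt1 and Hells in the former and of Uhrf1 and Dnmt1 in the latter. Tet3 and Dnmt3a were next and overlapped in both groups. Hells was first in all 4 groups that were harvested on day 6 after 4OHT, with Tbc1d12 added in the siRNA groups among them. It was also first with PD alone, where its values overlapped those of Dnmt1. Tet1 or Tet2 was last in every group but siCtrl and the untreated inhibitor cells, where Dnmt3b was.

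Tet3 gave the largest part of the summed Tet FPKM in every library. Its share was 44.0 to 60.9% in total RNA libraries, 60.4 to 76.1% in siRNA libraries and 67.0 to 84.6% in inhibitor libraries. Tet2 gave 25.7 to 41.2% in total RNA, and 6.14 to 23.9% over the other libraries. The library preparation differed between these experiments (rRNA removal against the standard mRNA kit), so shares set across them are values side by side and no comparison.

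Dnmt1 siRNA lowered Dnmt1 and, averaged over cells with and without 4OHT, Tet1, Tet3 and Dnmt3a, while Uhrf1 and Hells were not called. Dnmt1 stood at 80.5 and 73.4 FPKM with siCtrl and at 12.2 and 10.6 FPKM with siDnmt1, so that 14.8% of the control mean was left. With 4OHT it stood at 78.7 and 78.3 FPKM with siCtrl and at 12.2 and 11.4 FPKM with siDnmt1, or 15.1% of the mean. The log2 fold change was -2.75 ± 0.11 (SE; limma, adjusted p = 0.00016) without 4OHT and -2.72 ± 0.11 (adjusted p = 0.00016) with 4OHT, where n = 2 against 2 in each. The groups lay far apart in both arms, and the interaction with 4OHT was 0.03 ± 0.15 (adjusted p = 0.97).

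Without 4OHT, 2 of the 8 members were called at an adjusted p under 0.05, both lower, Dnmt1 and Tet3, against 7.73% of all 11235 genes tested and 4.66% called lower. Of all genes called, 39.7% were higher, and 53.8% after scaling by median ratios. With 4OHT, only Dnmt1 of the 8 was called, against 2.00% of all genes tested. The members' median log2 fold change was -0.69 without 4OHT and -0.72 with it, beside -0.09 and -0.02 over all genes tested. Dnmt1 is the target of the siRNA, so its calls follow from the design, and these counts and medians include it. For a single gene, an exact permutation test on 2 against 2 libraries cannot give a p under 0.333, and 3 against 3 cannot go under 0.1, so the calls rest on the variances that limma shares across genes.

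Uhrf1 stood at 81.9 and 81.3 FPKM with siCtrl and at 90.3 and 87.9 with siDnmt1, a log2 fold change of 0.13 ± 0.11 (limma, adjusted p = 0.52). With 4OHT its values were 82.3 and 68.1 FPKM against 78.3 and 85.5 and overlapped. Hells with Tbc1d12 stood at 75.3 and 69.0 FPKM with siCtrl and at 79.0 and 73.7 with siDnmt1, again with overlap, and its log2 fold change was 0.08 ± 0.11 (adjusted p = 0.68). Both differences lay within 2 SE of 0 while Dnmt1 was at 14.8% of its control, although a p that misses the threshold does not show equal levels.

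Dnmt3a had lower values in both arms. It stood at 6.25 and 5.37 FPKM with siCtrl and at 3.83 and 3.65 with siDnmt1, and with 4OHT at 4.36 and 4.20 FPKM against 2.64 and 3.12. The groups did not overlap in either arm, and the log2 fold changes were -0.62 ± 0.16 (limma, adjusted p = 0.077) and -0.56 ± 0.16 (adjusted p = 0.15). Dnmt3b, at 1.44 and 0.960 FPKM with siCtrl and 1.03 and 0.937 with siDnmt1, overlapped between the groups in each arm.

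The 3 Tet genes all had lower values after Dnmt1 siRNA. Tet3 stood at 5.79 and 6.67 FPKM with siCtrl and at 3.01 and 2.87 with siDnmt1, a fall of 1.06 ± 0.23 on the log2 scale (limma, adjusted p = 0.046). With 4OHT it stood at 4.98 and 7.16 FPKM against 2.34 and 2.96, a difference of -1.15 ± 0.23 (adjusted p = 0.07). No Tet3 value with siDnmt1 reached any value without it. The call without 4OHT was lost when any 1 of its 4 libraries was left out (siCtrl replicate 1, adjusted p = 0.19; siCtrl replicate 2, 0.25; siDnmt1 replicate 1, 0.23; siDnmt1 replicate 2, 0.26).

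Tet1 stood at 1.62 and 1.10 FPKM with siCtrl and at 0.473 and 0.386 with siDnmt1, and with 4OHT at 0.914 and 1.00 FPKM against 0.278 and 0.485. The log2 differences were -1.45 ± 0.37 (limma, adjusted p = 0.069) and -1.17 ± 0.37 (adjusted p = 0.17). Tet2 stood at 2.17 and 0.999 FPKM with siCtrl and 0.724 and 0.945 with siDnmt1, and at 0.940 and 1.73 FPKM against 0.821 and 0.520 with 4OHT. Its groups did not overlap either, but its differences of -0.77 ± 0.48 and -0.87 ± 0.48 were not called. The summed Tet FPKM was 9.18 ± 0.580 (SD, n = 2) with siCtrl and 4.20 ± 0.00646 with siDnmt1, and with 4OHT 8.36 ± 2.17 and 3.71 ± 0.373. Tet3 kept a similar share of the sum, 68.2 ± 11.1% and 69.9 ± 2.30% without 4OHT.

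The 2 Dnmt1 siRNA comparisons share no library, and they were also averaged in the same fit, a choice made after the values were seen. By that average 4 of the 8 members were called, against 13.7% of all genes tested. All 4 were lower, where 8.51% of all genes were called lower, and they include Dnmt1, the target of the siRNA. Dnmt1 was 6.65-fold lower (limma, adjusted p = 2.19e-05), Tet1 2.47-fold lower (adjusted p = 0.027), Tet3 2.15-fold lower (adjusted p = 0.011) and Dnmt3a 1.51-fold lower (adjusted p = 0.026). Tet2 was not called at -0.82 ± 0.34 (adjusted p = 0.16), and Uhrf1, Hells and Dnmt3b were not called. No member's interaction between 4OHT and Dnmt1 siRNA was called in limma, where 0.196% of all genes tested were, and none had an unadjusted p under 0.05.

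**Figure D2:**
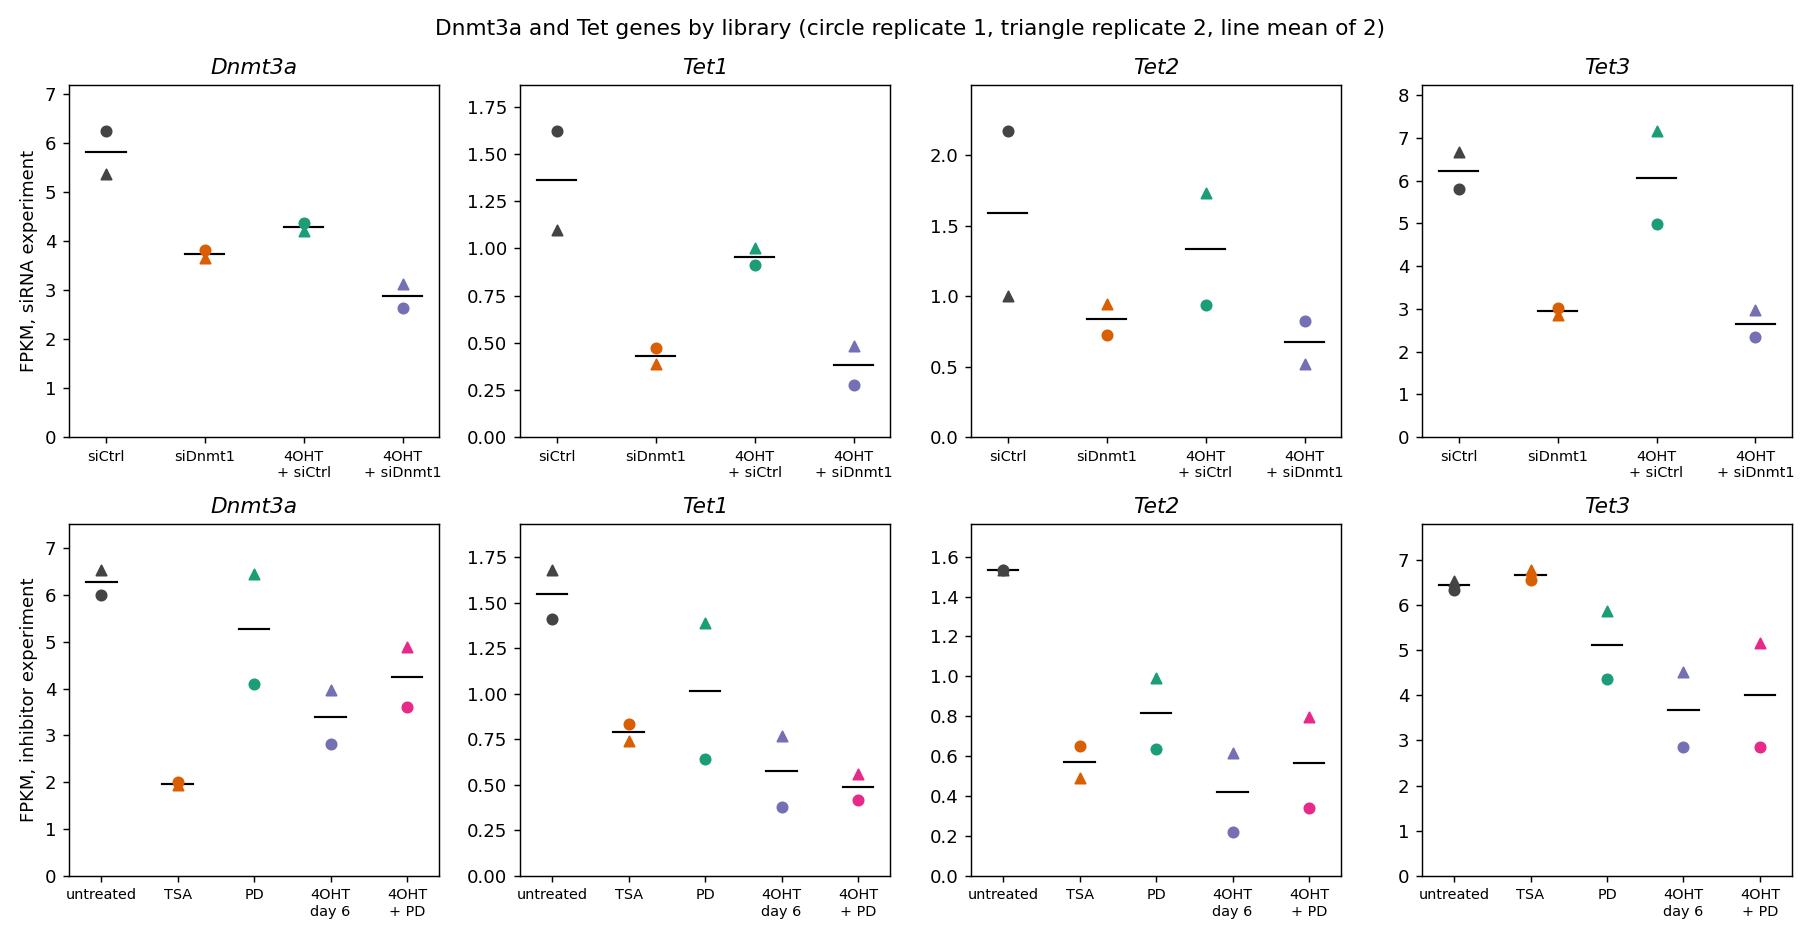
FPKM of Dnmt3a, Tet1, Tet2 and Tet3 in each library of the siRNA and inhibitor experiments, with circles for replicate 1, triangles for replicate 2 and a line at the mean of the 2. The siDnmt1 libraries lie below their siCtrl libraries for all 4 genes, and replicate 1 lies below replicate 2 for all 4 genes in the PD, 4OHT day 6 and 4OHT with PD groups.

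Dnmt3a, Tet1, Tet2 and Tet3 have long transcripts, the longest 9685, 14369, 9179 and 10904 nt in the mm9 annotation, against 5264 nt for Dnmt1, 3586 for Uhrf1, 5868 for Hells and 4320 for Dnmt3b. Long transcripts as a class had lower values too. Over the 456 genes tested with transcripts of at least 8000 nt, the median log2 fold change was -0.20 for siDnmt1 and -0.23 for siDnmt1 with 4OHT, where genes of 2000 to 4000 nt had medians of -0.08 and 0.01. With the trend of length removed from each library, the averaged differences were -1.05 for Tet1 (limma, adjusted p = 0.028), -0.89 for Tet3 (adjusted p = 0.024) and -0.40 for Dnmt3a (adjusted p = 0.042), and the 4 calls held. The call of Tet3 without 4OHT did not hold then (-0.87, adjusted p = 0.082).

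**Figure D3:**
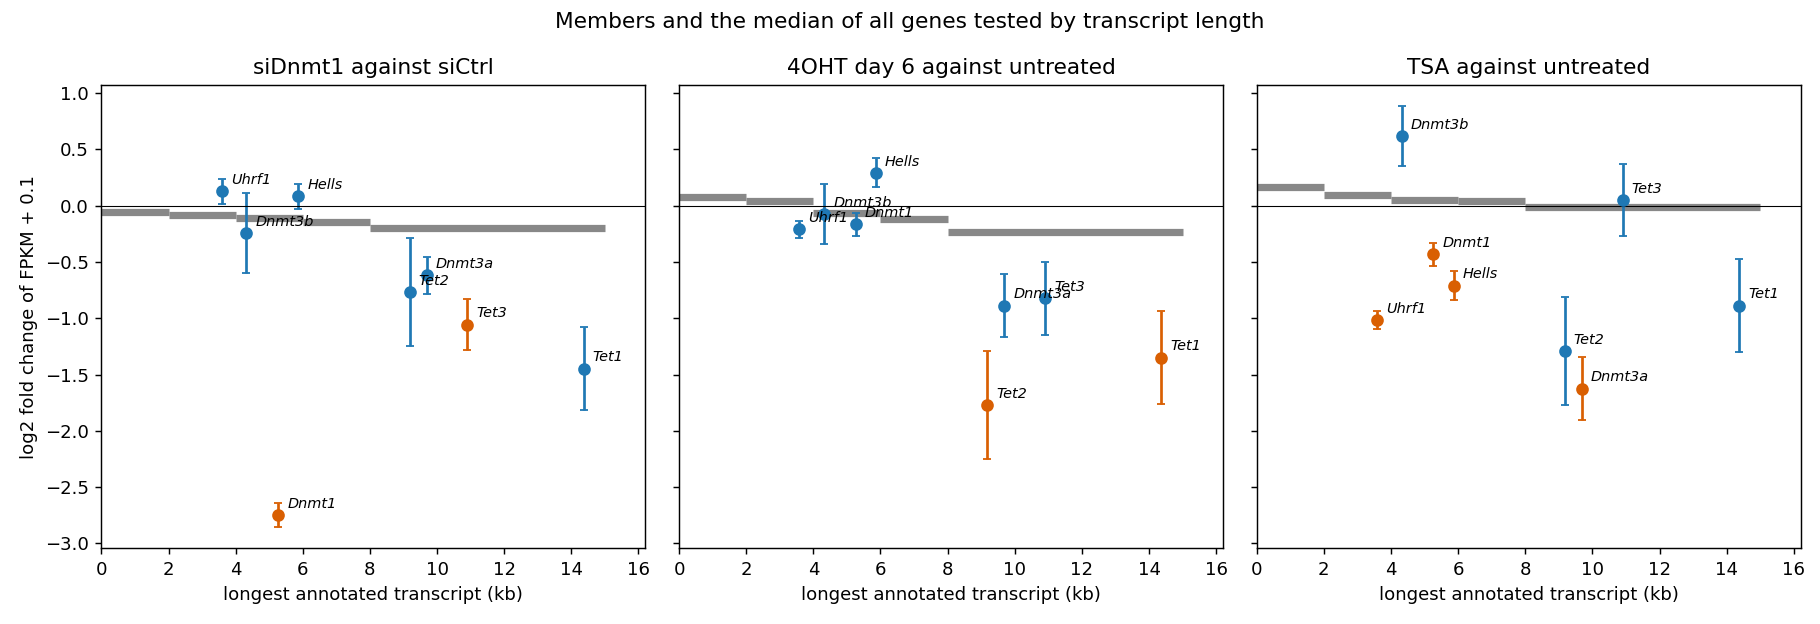
Log2 fold change (SE bars) of each of the 8 genes against the length of its longest transcript (kb), in 3 comparisons (siDnmt1, 4OHT day 6 and TSA, each against its control), orange where called and blue where not, with the median of all genes tested per length bin in grey. The last bin, of 8000 nt and more, is open and is drawn to 15 kb, and its median lies below that of shorter genes after Dnmt1 siRNA (-0.20) and on day 6 after 4OHT (-0.23).

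Markers of other cell types also moved with Dnmt1 siRNA. The summed FPKM of 8 epithelial or endothelial markers was 1.05 to 1.28 with siCtrl and 55.7 to 56.2 with siDnmt1, and with 4OHT 1.93 to 13.2 and 54.3 to 86.8. Of these 8, Epcam, Krt8, Krt18, Cdh1 and Kdr reached 1 FPKM in at least 1 library of the series, and the other 3, Pecam1, Cdh5 and Tek, stayed under 1 in every library. The 8 pluripotency and germ cell markers summed to 1.53 FPKM in both siCtrl libraries and to 4.42 and 5.24 with siDnmt1, and the 12 fibroblast markers to between 3274 and 3287 FPKM and between 2802 and 2870 FPKM. Of 15 fibroblast markers tested, shared rows included, 6 were lower and 1 higher with siDnmt1, and of 3 epithelial or endothelial markers 2, Krt8 and Krt18, were higher. Their part in the values of the members was not tested. Fewer cells of a type and less RNA per cell cannot be told apart in these bulk libraries.

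Other genes of the pathway are to be read against the 7.73% of all genes called after Dnmt1 siRNA. Of all 11235 genes tested in limma, 2895 had an unadjusted p under 0.05 without 4OHT and 2176 with it. Of 10 genes tested that work with the methyltransferases (such as Uhrf2, Usp7 and Trim28), 0 were called in limma without 4OHT and 2 had an unadjusted p under 0.05. Of 30 genes of DNA replication, 0 were called and 3 had an unadjusted p under 0.05. The methyl-CpG reader Zbtb38, which shared its row with E030011O05Rik, was higher and stood at 3.94 ± 0.628 FPKM (SD, n = 2) with siCtrl and 9.32 ± 0.00566 with siDnmt1. Of 9 genes tested from the list drawn up for methyl donor supply, Ahcyl1 was lower, and its own part in that supply was not tested. Of 12 genes of Tet cofactors and base excision Idh2, the mitochondrial isocitrate dehydrogenase, was lower (-0.77 ± 0.15, limma, adjusted p = 0.032). With 4OHT, 0 genes of these 5 lists were called, and 1, 2, 1, 3 and 7 genes of the partner, donor, reader, base excision and replication lists had an unadjusted p under 0.05.

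In total RNA, every difference of a member tested after 4OHT was under 2-fold. All libraries came from the line with the conditional allele, so effects of the drug and of the deletion cannot be told apart. On day 5 after 4OHT, Uhrf1 was the only one of 7 members tested that was called, against 36.1% of all 9791 genes tested. Uhrf1 stood at 76.3, 79.3 and 77.2 FPKM in untreated cells and at 67.4, 66.3 and 64.4 on day 5, so the groups did not overlap. The fall was 0.23 ± 0.03 on the log2 scale (limma, adjusted p = 0.0011), to 85.1% of the untreated mean.

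Dnmt1 with S1pr2 stood at 97.3, 98.7 and 101 FPKM in untreated cells, at 87.1, 96.3 and 93.1 on day 5 and at 93.4, 94.8 and 101 in long-term KO cells. Its differences were -0.11 ± 0.05 (limma, adjusted p = 0.12) and -0.04 ± 0.05 (adjusted p = 0.45). Where the 2 genes had rows of their own, Dnmt1 alone stood at 82.0 and 79.3 FPKM on day 5 and at 75.7 and 83.0 in long-term KO cells, all below its 3 untreated values, and S1pr2 at 14.3 and 13.9 FPKM and at 17.7 and 17.6, all above its untreated values. These single rows are missing in 1 library of each 4OHT group and were not tested. Hells with Tbc1d12 stood at 87.2, 88.9 and 89.4 FPKM in untreated cells and at 89.1, 85.8 and 89.4 on day 5, with a difference of -0.01 ± 0.03. In long-term KO cells it stood at 74.0, 74.5 and 70.7 FPKM, below every other total RNA library, and the fall of 0.28 ± 0.03 was called (adjusted p = 0.00012).

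Dnmt3a and Tet3 were higher in long-term KO cells. Dnmt3a stood at 3.73, 3.86 and 3.77 FPKM in untreated cells, 3.77, 3.63 and 3.98 on day 5 and 4.63, 4.75 and 4.59 in long-term KO cells. The rise over untreated cells was 0.29 ± 0.04 on the log2 scale (limma, adjusted p = 0.00061), or 1.22-fold. Tet3 stood at 2.87, 3.28 and 4.25 FPKM in untreated cells, 2.47, 2.43 and 2.87 on day 5 and 5.07, 4.75 and 5.27 in long-term KO cells. It was not called on day 5 (-0.39 ± 0.14, adjusted p = 0.058), rose 1.45-fold in long-term KO cells over untreated cells (adjusted p = 0.0088), and rose 1.91-fold over day 5 (adjusted p = 0.00052). Without untreated replicate 1, the lowest of its group, the day 5 difference of Tet3 was -0.52 (adjusted p = 0.023).

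In long-term KO cells 3 of 7 members tested were called against untreated cells, 2 higher and 1 lower, where 67.0% of all genes tested were. Against day 5, 4 of 7 were called, Uhrf1, Dnmt3a and Tet3 higher and Hells lower, where 65.7% of all genes were. These shares of the members are below those of all genes tested. The members' median log2 fold changes were -0.11 on day 5, 0.01 in long-term KO cells and 0.19 between the 2, beside 0.00066, 0.06 and 0.04 over all genes tested. Markers of cell type also moved. On day 5, 8 of 12 fibroblast markers tested were lower and 1 higher, and in long-term KO cells 0 were lower and 7 higher, with summed levels of 1807 to 1811 FPKM in untreated cells, 1456 to 1546 on day 5 and 1984 to 2043 in long-term KO cells. The epithelial or endothelial markers summed to between 1.29 and 1.63 FPKM, between 4.24 and 5.46 and between 0.449 and 0.670, and Krt8 was higher on day 5. Their part was not tested. All 8 calls were kept under every alternative computed for them, although none reached 2-fold.

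Dnmt3b and Tet2 were not called in total RNA. Dnmt3b lay between 0.895 and 1.22 FPKM over the 9 libraries, and Tet2 between 1.80 and 2.88 FPKM, with untreated replicate 2 the highest. Without that replicate the Tet2 difference in long-term KO cells was 0.40 (limma, adjusted p = 0.017), where with it the difference was 0.21 ± 0.17 (adjusted p = 0.31). Tet1, at 0.563 to 0.958 FPKM, was under 1 FPKM in all 9 libraries and was not tested. Without the filter its differences were -0.32 on day 5 (adjusted p = 0.13) and -0.10 in long-term KO cells (adjusted p = 0.6). The deposited interval of Dnmt3b reached 13160 FPKM in untreated replicate 3 and 17.0 FPKM in long-term KO replicate 1, so those 2 values are loosely set by Cufflinks. The summed Tet FPKM was 6.60 ± 0.727 (SD, n = 3) in untreated cells, 5.36 ± 0.414 on day 5 and 8.41 ± 0.476 in long-term KO cells.

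With siRNA, 4OHT raised Hells. Hells with Tbc1d12 stood at 75.3 and 69.0 FPKM with siCtrl and at 114 and 96.5 FPKM with 4OHT and siCtrl, 1.46-fold higher (limma, adjusted p = 0.027). With Dnmt1 siRNA it stood at 79.0 and 73.7 FPKM without 4OHT and 98.9 and 95.4 with it, a difference of 0.35 ± 0.11 (adjusted p = 0.08). The groups did not overlap in either arm. The deposited interval of Hells in 4OHT with siCtrl replicate 1 reached 11394 FPKM, and the call was lost in a fit of only the groups compared (adjusted p = 0.13) and without siCtrl replicate 1 (adjusted p = 0.11) or replicate 2 (adjusted p = 0.18).

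Of the 8 members, Hells alone was called for 4OHT with siCtrl, against 13.4% of all genes tested. For 4OHT with siDnmt1 against siDnmt1, 0 of 8 were called in limma and 1, Hells, had an unadjusted p under 0.05, against 13.6% of all genes called. Both comparisons came with lower fibroblast markers. Of 15 tested, 11 were lower and 0 higher for 4OHT with siCtrl (median -1.56), and 9 lower and 0 higher for 4OHT with siDnmt1, and the summed FPKM was 3274 to 3287 with siCtrl and 1870.0 to 2274 with 4OHT and siCtrl. Their part was not tested. In the comparison with siDnmt1 the median of all genes tested was 0.14 on the log2 scale, and 0.0052 after scaling by median ratios, and the members' median was -0.14. Averaged over both arms, Hells was 1.36-fold higher (adjusted p = 0.0099) and Dnmt3a 1.32-fold lower (adjusted p = 0.044), 2 calls in 8 where 32.2% of all genes tested were called.

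In the inhibitor experiment, day 6 after 4OHT had lower Tet1 and Tet2. The comparisons of 4OHT, TSA and PD with untreated cells share the same 2 untreated libraries, as those of day 5 and long-term KO share 3 in total RNA. Tet2 stood at 1.54 and 1.53 FPKM in the untreated libraries and at 0.221 and 0.617 on day 6, a difference of -1.77 ± 0.48 (limma, adjusted p = 0.033). Tet1 stood at 1.41 and 1.68 FPKM in untreated cells and at 0.378 and 0.768 on day 6, a difference of -1.35 ± 0.41 (adjusted p = 0.049). Every untreated value lay above every day 6 value for both genes, but the 2 day 6 libraries lay well apart from each other. Without 4OHT day 6 replicate 1, the lower of the 2, Tet2 was at -1.19 (adjusted p = 0.14) and Tet1 at -0.92 (adjusted p = 0.21). Tet1 was also not called without untreated replicate 1 (adjusted p = 0.14) or replicate 2 (adjusted p = 0.21), or with a pseudocount of 0.01 (adjusted p = 0.059). Neither gene was called with no filter (adjusted p = 0.08 for Tet1 and 0.057 for Tet2) or with only the groups compared (0.073 and 0.061). In the siRNA experiment, also harvested on day 6, 4OHT with siCtrl left both genes uncalled. The differences there were -0.45 ± 0.37 for Tet1 (limma, adjusted p = 0.44) and -0.19 ± 0.48 for Tet2 (adjusted p = 0.81).

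Tet3 and Dnmt3a had lower values on day 6 without a call. Tet3 stood at 6.34 and 6.53 FPKM in untreated cells and 2.85 and 4.51 on day 6 (-0.82 ± 0.32, limma, adjusted p = 0.1). Dnmt3a stood at 6.00 and 6.54 FPKM in untreated cells and 2.81 and 3.96 on day 6 (-0.89 ± 0.28, adjusted p = 0.053). Replicate 1 was the lower for both, and in a fit with the replicate number as a block both were called (adjusted p = 0.042 for Tet3 and 0.024 for Dnmt3a), although nothing in the labels pairs those numbers. The 477 genes tested with transcripts of at least 8000 nt had a median of -0.23 in this comparison, and those of 2000 to 4000 nt 0.04. With the length trend removed, Tet1 (-1.04, adjusted p = 0.04), Tet2 (-1.54, adjusted p = 0.019), Tet3 (-0.56, adjusted p = 0.048) and Dnmt3a (-0.65, adjusted p = 0.033) were all called.

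Dnmt1 and Uhrf1 had slightly lower values and Hells higher ones on day 6, without a call. Dnmt1 stood at 81.1 and 86.4 FPKM in untreated cells and 75.2 and 74.1 on day 6, and Uhrf1 at 85.3 and 84.8 FPKM and 73.9 and 73.0. Hells stood at 75.9 and 79.0 FPKM in untreated cells and 89.8 and 100 on day 6, a difference of 0.29 ± 0.13 (limma, adjusted p = 0.14), and with the length trend removed it was called higher (0.42, adjusted p = 0.008). Dnmt3b, at 0.998 and 1.32 FPKM in untreated cells and 0.965 and 1.21 on day 6, overlapped. In all, 2 of 8 members were called, both lower, against 25.1% of all 11912 genes tested and 12.6% called lower. Of 14 fibroblast markers tested, 9 were lower and 0 higher, with a median of -1.11. They summed to between 2482 and 2701 FPKM in untreated cells and 2249 and 2281 on day 6, and the epithelial or endothelial markers to between 1.41 and 1.60 and between 1.70 and 3.02. Their part was not tested.

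**Figure D4:**
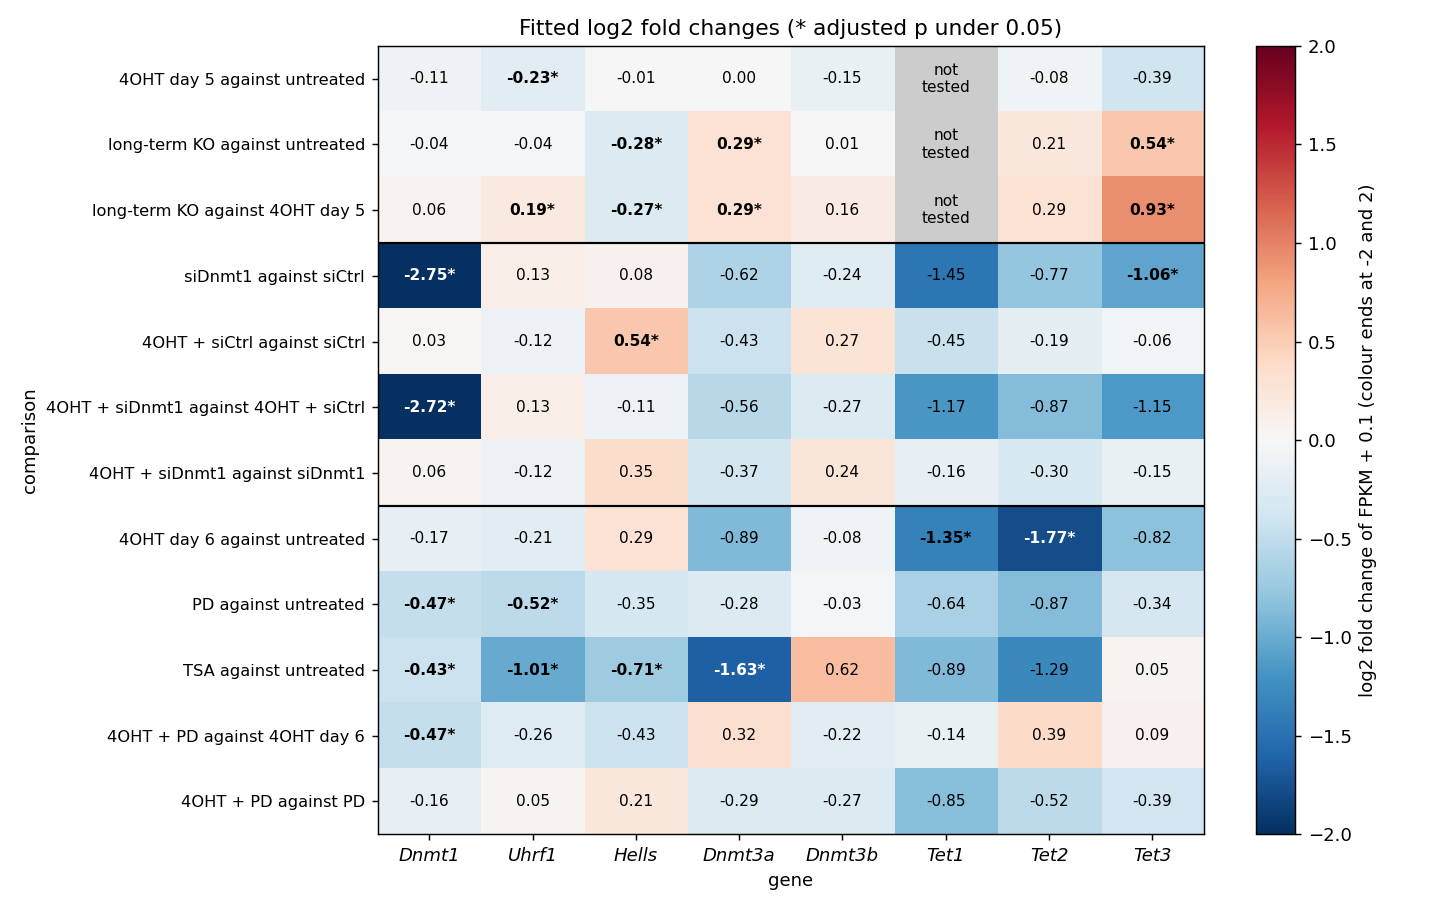
Heat map of the log2 fold change, on the log2(FPKM + 0.1) scale, of the 8 genes in the 12 comparisons, with an asterisk where the adjusted p was under 0.05. Tet1 was not tested in total RNA. The 21 calls, of 93 tests, are 15 lower and 6 higher, and the 7 of at least 2-fold are all lower. These 7 include Dnmt1 after its own siRNA, and several comparisons share libraries. Over all genes tested, 2.00% to 67.0% were called by comparison, and 1.42% to 31.6% at 2-fold or more.

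TSA lowered the maintenance genes and Dnmt3a, and Tet3 was not called. Uhrf1 stood at 85.3 and 84.8 FPKM in untreated cells and 41.3 and 42.9 with TSA, 2.02-fold lower (limma, adjusted p = 4.2e-05). Hells stood at 75.9 and 79.0 FPKM and 46.5 and 48.1 with TSA (-0.71 ± 0.13, adjusted p = 0.0022). Dnmt1 stood at 81.1 and 86.4 FPKM and 64.2 and 59.8 with TSA (-0.43 ± 0.10, adjusted p = 0.0079), a call lost without untreated replicate 2 or without TSA replicate 2 (adjusted p = 0.063 in each). Dnmt3a stood at 6.00 and 6.54 FPKM and 2.00 and 1.93 with TSA, 3.09-fold lower (adjusted p = 0.0018), with a deposited interval of up to 10.8 FPKM in TSA replicate 1. For none of the 4 genes did any TSA value reach an untreated value.

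Dnmt3b, which shares its role with Dnmt3a, had higher values. It stood at 0.998 and 1.32 FPKM in untreated cells and at 1.82 in both TSA libraries, a difference of 0.62 ± 0.26 (limma, adjusted p = 0.08) that turned to -0.16 after quantile normalization. Dnmt3a made up 84.5 ± 1.78% (SD, n = 2) of the summed Dnmt3a and Dnmt3b FPKM in untreated cells and 51.9 ± 0.548% with TSA. Tet3 stood at 6.34 and 6.53 FPKM in untreated cells and 6.55 and 6.78 with TSA, a difference of 0.05 ± 0.32 (adjusted p = 0.91). Tet1 stood at 0.834 and 0.742 FPKM with TSA (-0.89 ± 0.41, adjusted p = 0.1) and Tet2 at 0.653 and 0.492 (-1.29 ± 0.48, adjusted p = 0.051), below all their untreated values. Tet3 made up 67.6 ± 0.900% in untreated cells and 81.5 and 84.6% in the TSA libraries of a summed Tet FPKM of 9.51 ± 0.327 and 8.03 ± 0.0134, a description with no test.

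The calls with TSA were 4 of 8 members, all lower, against 55.5% of all genes tested and 24.5% called lower. The members' median was -0.80 and that of all genes 0.09. The groups of Tet3 did not overlap, although its difference was 0.05 ± 0.32. With 2 libraries against 2, the groups of an unchanged gene lie apart with a probability of 0.333. The share of all genes tested with such groups is not given here. Genes of at least 8000 nt had a median of -0.02 with TSA, and with the length trend removed Dnmt3a was at -1.57 (limma, adjusted p = 0.00025) and Tet2 was called (-1.24, adjusted p = 0.02). The epithelial or endothelial markers summed to between 1.41 and 1.60 FPKM in untreated cells and 33.3 and 34.6 with TSA, the 8 pluripotency and germ cell markers to between 1.08 and 1.36 and between 3.12 and 3.75, and the fibroblast markers to between 2482 and 2701 and between 3243 and 3317. Of 14 fibroblast markers tested, 7 were lower and 3 higher with TSA. Their part was not tested.

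The lists of other genes of the pathway stand beside the same 55.5% of all genes called and 24.5% called lower with TSA. Of 10 partners tested 9 were lower and 0 higher, with a median of -0.81. They included Trim28, the corepressor that brings SETDB1 to retroviruses, at 90.1 ± 0.934 FPKM (SD, n = 2) in untreated cells and 30.7 ± 3.15 with TSA, Cdca7, a partner of HELLS (28.2 ± 0.0711 and 11.1 ± 1.01), and Zfp57, which protects imprints (17.1 ± 0.833 and 8.22 ± 1.56). Of 8 donor genes 3 were lower and 1 higher, and Shmt2 and Shmt1, the serine hydroxymethyltransferases, were 4.20-fold and 2.42-fold lower. Ahcy, which clears the product that inhibits methyltransferases, was 2.28-fold lower. Among 10 readers 5 were lower, with Mbd3, a subunit of the NuRD complex, 2.78-fold lower, and Zbtb38 (with E030011O05Rik) 2.56-fold lower. Among 12 genes of Tet cofactors and base excision 4 were lower and 2 higher, with the glycosylases Neil1 and Neil3 at log2 differences of -2.19 and -1.59 and the endonuclease Apex1 at -1.09. Of 30 replication genes 13 were lower and 4 higher, with a median of -0.39, and the log2 differences of Rrm1, Tk1, Cdt1 and Mki67 were -2.01, -1.92, -1.32 and -1.26.

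PD lowered Dnmt1 and Uhrf1. Dnmt1 stood at 81.1 and 86.4 FPKM in untreated cells and 61.7 and 59.0 with PD (-0.47 ± 0.10, limma, adjusted p = 0.023), and Uhrf1 at 85.3 and 84.8 FPKM and 60.9 and 57.4 (-0.52 ± 0.08, adjusted p = 0.0056). Hells stood at 60.9 and 60.6 FPKM with PD, below both untreated values, and was not called (-0.35 ± 0.13, adjusted p = 0.12). The 3 maintenance genes thus had similar levels with PD, between 57.4 and 61.7 FPKM. The call of Dnmt1 was lost without any 1 of its 4 libraries, at adjusted p = 0.10 without untreated replicate 1, 0.17 without untreated replicate 2, 0.075 without PD replicate 1 and 0.078 without PD replicate 2. That of Uhrf1 was lost without either untreated replicate (adjusted p = 0.063 in each).

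With PD, 2 of 8 members were called against 13.7% of all genes tested, and the members' median was -0.41 beside -0.07 over all genes. Dnmt3a stood at 4.10 and 6.44 FPKM with PD and overlapped the untreated values. Tet1 at 0.642 and 1.39 FPKM, Tet2 at 0.638 and 0.990 and Tet3 at 4.37 and 5.86 lay below the untreated values without a call (adjusted p = 0.28 to 0.53). Replicate 1 was the lower of the 2 for each of these 4 genes, as it was with 4OHT and with both agents. Dnmt3b, at 0.929 and 1.36 FPKM, overlapped. The fibroblast markers summed to between 3569 and 4260 FPKM with PD, where 6 of 14 were higher and 3 lower, and their part was not tested.

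With 4OHT, PD again lowered Dnmt1, from 75.2 and 74.1 FPKM to 49.7 and 58.5 (-0.47 ± 0.10, limma, adjusted p = 0.037). It was the only call of 8 members, against 6.73% of all genes tested, and it was lost without 4OHT day 6 replicate 1 (adjusted p = 0.13), 4OHT day 6 replicate 2 (adjusted p = 0.11) or 4OHT with PD replicate 1 (adjusted p = 0.14). Uhrf1 stood at 61.8 and 60.7 FPKM and Hells at 61.9 and 80.1, both below their day 6 values (adjusted p = 0.09 and 0.092). Averaged over both arms, a choice made after the values were seen, Dnmt1 (-0.47 ± 0.07, adjusted p = 0.0047), Uhrf1 (-0.39 ± 0.05, adjusted p = 0.003) and Hells (-0.39 ± 0.09, adjusted p = 0.023) were called lower with PD, 3 of 8 members where 19.2% of all genes tested were.

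Dnmt3a at 3.60 and 4.89 FPKM, Tet1 at 0.416 and 0.557, Tet2 at 0.339 and 0.795 and Tet3 at 2.85 and 5.16 with both agents overlapped their values on day 6 after 4OHT. Dnmt3b stood at 0.873 and 0.960 FPKM. For 4OHT with PD against PD, 0 of 8 members were called in limma and 0 had an unadjusted p under 0.05, where 8.46% of all genes tested were called. Averaged over cells with and without PD, 4OHT lowered Tet1 2.14-fold (adjusted p = 0.026) and Tet2 2.21-fold (adjusted p = 0.038), 2 of 8 members where 30.5% of all genes tested were called. In the siRNA experiment, 4OHT averaged over both arms gave -0.31 ± 0.26 for Tet1 (limma, adjusted p = 0.40). For Tet2 it gave -0.25 ± 0.34 there (adjusted p = 0.60), and neither gene was called. No member's interaction of 4OHT and PD was called, and 1, that of Uhrf1 (0.26 ± 0.11, adjusted p = 0.3), had an unadjusted p under 0.05, where 0.722% of all genes tested were called.

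Among the other genes of the pathway, PD lowered 2 of 10 partners, Lig1 and Zfp57, and 5 of 30 replication genes, Mcm10, Cdt1, Pola1, Chaf1a and Mki67, and raised none of either list, where 13.7% of all genes were called and 7.77% were lower. Of 8 donor genes 1 was higher and 1 lower, of 12 genes of cofactors and base excision 1 was higher and 2 lower, and of 10 readers 0 were called and 0 had an unadjusted p under 0.05 in limma. Mki67, the proliferation marker, was at 48.6 ± 2.64 FPKM (SD, n = 2) in untreated cells and 19.5 ± 4.21 with PD. Neil3 was 2.54-fold lower. Gadd45b, a stress-induced gene that has been tied to demethylation, stood at 17.8 ± 0.521 FPKM in untreated cells, 40.6 ± 4.53 with PD, 33.4 ± 7.28 on day 6 and 103 ± 17.1 with both. Gadd45g stood at 49.3 ± 2.83 FPKM with PD, 47.2 ± 4.67 on day 6 and 177 ± 24.6 with both, and its interaction of 4OHT and PD was 2.60 ± 0.39 (limma, adjusted p = 0.043). Its log2 differences with both agents, 1.84 against PD and 1.90 against day 6, were smaller than this interaction. The untreated mean of Gadd45g, not given here, thus lay above those with PD and on day 6. Shmt1 stood at 69.5 ± 4.68 FPKM on day 6 and 32.7 ± 3.48 with both, and Mcm10 was 2.23-fold higher with both than with PD.

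After 4OHT, 36.1% of all genes tested were called at any fold on day 5, 67.0% in long-term KO cells and 25.1% on day 6. Those called lower made up 17.8%, 29.5% and 12.6%, and the list counts that follow are calls at any fold. Of 8 donor genes 0 were higher and 5 lower on day 5, 1 was higher and 4 lower in long-term KO cells, and 2 were higher and 0 lower on day 6. Of the genes of cofactors and base excision tested, 1 was higher and 3 lower on day 5, 5 higher and 3 lower in long-term KO cells, and 1 higher and 3 lower on day 6. Calls of at least 2-fold made up 3.31%, 13.6% and 11.1% of all genes tested in the same order, and 5.96% with siCtrl. The list genes that passed this rule are named next. Idh1, which makes the 2-oxoglutarate that Tet enzymes use, stood at 62.5 ± 1.94 FPKM (SD, n = 2) in untreated inhibitor cells and 12.6 ± 2.66 on day 6 (limma, adjusted p = 0.0003), and at 39.7 ± 0.764 with siCtrl and 14.7 ± 5.53 with 4OHT and siCtrl (adjusted p = 0.017). In total RNA it stood at 35.6 ± 1.98 FPKM (n = 3) in untreated cells and 77.8 ± 1.77 in long-term KO cells. Shmt2 fell from 176 ± 4.61 FPKM to 87.0 ± 0.675 on day 5 and 45.2 ± 1.44 in long-term KO cells. Shmt1 stood at 45.1 ± 2.13 FPKM in untreated and 8.33 ± 0.148 in long-term KO cells. Gadd45a stood at 24.1 ± 2.45 and 4.61 ± 1.35 FPKM, Mbd6 (in 1 row with Mars) at 122 ± 2.52 and 43.9 ± 1.64 FPKM, and the glycosylases Mbd4 and Neil3 at 2.51 ± 0.111 and 5.57 ± 0.0384 and at 5.34 ± 0.350 and 11.7 ± 0.664 FPKM. In cells given Dnmt1 siRNA, 4OHT raised Mbd4 2.59-fold, Gadd45b 3.04-fold, Ccne1 2.31-fold and Mcm10 2.06-fold and lowered Idh1 2.58-fold (limma, adjusted p = 0.016 to 0.035).

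Across libraries, with each experiment centred on its own mean, the Tet genes had positive correlations with one another, and with Dnmt3a and Dnmt1 (the plot of correlations). Pearson's r of log2(FPKM + 0.1) was 0.80 between Tet1 and Tet2, 0.78 between Tet1 and Tet3 and 0.65 between Tet2 and Tet3 over 27 libraries, and 0.84, 0.62 and 0.59 over the 23 without Dnmt1 siRNA. Over 27 libraries r was 0.70 between Dnmt1 and Tet1 and 0.65 between Dnmt1 and Tet3, but 0.49 and 0.26 over the 23. Between Dnmt3a and Tet1 it was 0.65 and between Dnmt3a and Tet2 0.69 over 27 libraries, and 0.56 and 0.65 over the 23. Over 27 libraries these values were about as high as that between Tet2 and Tet3. Uhrf1 and Hells had an r of 0.56 and 0.62 over the same sets. Dnmt1 and Uhrf1 had an r of -0.03 over 27 libraries and 0.62 without the Dnmt1 siRNA libraries. Dnmt3b went against Uhrf1, with -0.55 and -0.53. Libraries share their treatment and experiment, so these values are a description.

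**Figure D5:**
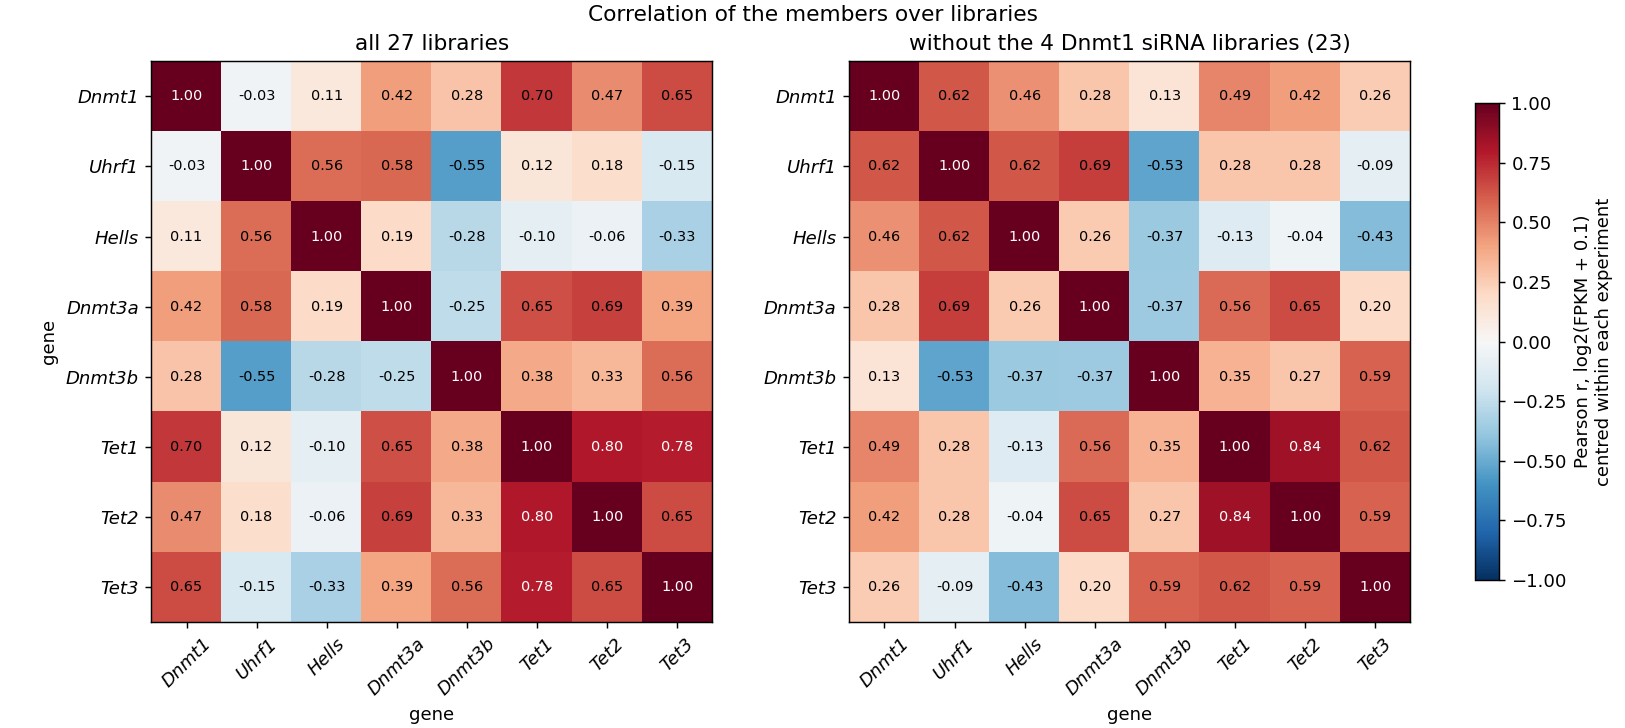
Pearson's r between the log2(FPKM + 0.1) values of the 8 genes, each experiment centred on its own mean, over all 27 libraries and over the 23 without Dnmt1 siRNA. The Tet genes have positive r with one another in both sets, and the r of Dnmt1 with Uhrf1 is -0.03 in the first set and 0.62 in the second.

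The centred values of 29 replication genes were averaged in each library into a mean pattern. Over 27 libraries, r with this mean pattern was 0.71 for Uhrf1, 0.70 for Hells, 0.24 for Dnmt1 and -0.48 for Dnmt3b. Of 10389 genes tested in all 3 experiments, the 3 whose pattern was most like that of Uhrf1 were Cyb5b, Aurkb and Eif4b (r = 0.93, 0.91 and 0.90), and those most like Hells were Ubqln4, Sltm and Tcof1 (0.93, 0.91 and 0.91). For Dnmt1 they were Micall2, Clcc1 and Zfp664 (0.89, 0.88 and 0.87) over all libraries, and Nab2, Spag5 and Tgfbr3 (0.90, 0.89 and 0.86) without the Dnmt1 siRNA libraries. Those for Dnmt3a were Tnrc18, Figf and Arid2 (0.94, 0.94 and 0.93), and for Dnmt3b 4833420G17Rik, Fbxw7 and Malat1 (0.86, 0.83 and 0.83). Tet1 went most closely with Tiam1, Rbl2 and Il1r1 (0.87, 0.87 and 0.86), Tet2 with Dzip1, Sp1 and Rhobtb1 (0.81, 0.81 and 0.80) and Tet3 with Ube4b, Golgb1 and Rbl2 (0.89, 0.88 and 0.88).

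In mm9 the genes lie at chr9:20711650-20757317 (Dnmt1, minus strand, 39 exons), chr17:56442744-56462909 (Uhrf1, plus), chr19:39005405-39045541 (Hells, plus), chr12:3806007-3914443 (Dnmt3a, plus), chr2:153475186-153513466 (Dnmt3b, plus), chr10:62267318-62361866 (Tet1, minus), chr3:133126643-133207354 (Tet2, minus) and chr6:83312367-83391672 (Tet3, minus). All 8 are annotated as protein coding, and the FPKM of each covers its exons.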

How the data were processed

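RNA-seq of 27 libraries was analysed: 9 of total RNA, 8 of the siRNA and 10 of the inhibitor experiment. Per the labels and the study's methods, total RNA was freed of rRNA with Ribo-Zero and made into TruSeq libraries, and the other libraries followed the TruSeq RNA kit without that step. The authors mapped reads to mm9 with TopHat2 2.0.12, keeping 1 alignment per read, and deposited the FPKM of each library as Cufflinks gave it with a RefSeq annotation. The files hold no counts, and depth was inferred from the deposited FPKM intervals of single-exon genes. A further 2 deposited tables hold the authors' own comparisons between groups (fold changes and p-values) and were not used.

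Rows were matched to genes by name, or in total RNA by the gene's position. A gene's stretch was the one shared by its rows in the libraries that name genes, and a row had to cover 95% of it, a rule that was settled after the files were seen. Genes that share a row in any library of an experiment were summed. Values were tested as log2(FPKM + 0.1) with limma 3.58.1 (R 4.3.3), trended variances, all libraries of an experiment in 1 fit, two-sided, with Benjamini-Hochberg adjustment over all genes with at least 1 FPKM in at least 3 (total RNA) or 2 libraries. A call is an adjusted p under 0.05. Fold changes are on the log2(FPKM + 0.1) scale, which understates changes of low genes. Errors of fold changes are SE and those of levels SD. There were 12 comparisons and 2 interactions. The members and lists were chosen with earlier results of these data known. Named genes outside the 8 were Setdb1 and S1pr2 as checks, for each list and comparison up to 4 called with at least a 2-fold change, and the 3 nearest patterns of each member. Others (Ahcyl1, Idh2, Krt8, Krt18 and, for PD, Lig1, Zfp57, Mcm10, Cdt1, Pola1 and Chaf1a) were named after their values were seen. Lists held 12 partners, 10 donor, 10 reader, 15 cofactor and excision and 30 replication genes. The fit was also run on simulated data with known changes in 1 comparison per experiment. Of 50 genes changed 2-fold, it called 41 in the total RNA, 13 in the siRNA and 18 in the inhibitor design. Of 50 changed 1.25-fold, it called 9, 0 and 0, so small changes of members can be missed. Promoters and their letters came from the RefSeq table of GRCm38.p6. Alternatives changed the pseudocount, filter, scaling, samples, variances, replicate block, row rule and length trend, or left out 1 library. An item of the lists is not reported here.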

Additional observations from a re-analysis of the deposited data

How the results depend on the processing

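Of 359 values of called members under other settings, 309 stayed called, 50 did not and 0 changed sign. Of 1426 values of members not called, 57 became called and 105 changed sign, most of them near 0. The cause was not tested for any of these. All 8 calls in total RNA, both calls of the Dnmt1 knockdown and the calls of Uhrf1, Hells and Dnmt3a with TSA held under every alternative computed, other than the added demand of a 2-fold change.

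The number of members called moved as follows, against 1, 3 and 4 for day 5, long-term KO and long-term KO against day 5, 2, 1, 1 and 0 for siDnmt1, 4OHT with siCtrl, 4OHT with siDnmt1 against 4OHT with siCtrl and against siDnmt1, and 2, 2, 4 and 1 for 4OHT day 6, PD, TSA and 4OHT with PD against day 6. Requiring a fold of at least 2 as well left 0 for day 5, long-term KO, long-term KO against day 5, 4OHT with siCtrl, PD and 4OHT with PD against day 6, and 2 for TSA. A filter of 5 FPKM, which leaves fewer members tested, gave 1 for long-term KO, 2 for long-term KO against day 5, 1 for siDnmt1 and 1 for 4OHT day 6. No filter gave 1 for siDnmt1 and 0 for 4OHT day 6. Quantile normalization gave 3 for day 5 and 4 for 4OHT day 6, median-ratio scaling 1 for siDnmt1 and a pseudocount of 0.01 gave 1 for 4OHT day 6. With TSA, 6 members were called with quantile normalization, only the groups compared, the replicate block, no variance trend or a pseudocount of 1, 5 with median-ratio scaling or the length trend removed, and 3 without untreated replicate 2 or TSA replicate 2. Long-term KO rose to 4 with median-ratio scaling, long-term KO against day 5 to 5 and PD to 3 with only the groups compared, 4OHT day 6 to 3 with a pseudocount of 1 or median-ratio scaling, and siDnmt1 to 3 without a variance trend. Using only the groups compared gave 4 for siDnmt1, 0 for 4OHT with siCtrl, 1 for 4OHT with siDnmt1 against siDnmt1, 1 for 4OHT day 6 and 0 for 4OHT with PD against day 6. Variances without a trend gave 0 for the last. The labels give no shared origin to same-numbered replicates, and the correlations of their deviations ran from -0.050 to 0.153, -0.052 to 0.038 and -0.023 to 0.266 in the 3 experiments, so no pairing was used. A fit with the replicate number as a block gave 2 for day 5, 1 for siDnmt1 and 4 for 4OHT day 6.

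With the length trend removed, a setting chosen after seeing the data, the counts were 3 for day 5, 5 for long-term KO, 1 for siDnmt1, 2 for 4OHT with siCtrl, 5 for 4OHT day 6, 1 for PD and 3 for 4OHT with PD against day 6. Averaging both arms, also chosen after seeing the data, gave 4 for siDnmt1 and 2 for 4OHT, and with the length trend removed as well 4 for siDnmt1, 3 for 4OHT with siCtrl and 5 for 4OHT day 6. Leaving out 1 library at a time gave 1 to 2 members called for day 5, 1 to 1 for siDnmt1, 0 to 1 for 4OHT with siCtrl, 1 to 2 for 4OHT with siDnmt1 against 4OHT with siCtrl, 0 to 2 for 4OHT day 6, 0 to 1 for PD and 0 to 2 for 4OHT with PD against day 6. A lone library left in a group is assumed to vary like the others.

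All but 11 of the 105 changes of sign were of values smaller than their SE. The 11 were those of Dnmt1 in long-term KO against day 5 (0.06, and -0.0093 with the length trend removed), Dnmt3b with TSA (0.62, and -0.16 after quantile normalization), Dnmt3a with PD (-0.28, 0.020 with both arms averaged and 0.19 with the length trend removed as well) and Tet3 with PD (-0.34, and 0.068 with both). They also include 6 values without 1 library, where Hells ranged from -0.23 to 0.0089 and Uhrf1 from -0.0090 to 0.26 for 4OHT with siDnmt1 against 4OHT with siCtrl, Uhrf1 from -0.26 to 0.013 for 4OHT with siCtrl, Dnmt3a from -0.60 to 0.038 for PD, and Tet3 from -0.81 to 0.029 and Dnmt3a from -0.61 to 0.032 for 4OHT with PD against PD. The share of calls that were higher moved from 53.5% to 40.6% for 4OHT with siCtrl, from 67.4% to 38.9% for 4OHT with siDnmt1 against siDnmt1 with median-ratio scaling, and from 62% to 49.4% and from 68.9% to 47% for 4OHT with PD against day 6 and against PD with quantile normalization.

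Dnmt3b, Tet1 and Tet2 were the low members, and the siRNA and inhibitor libraries were both the shallower ones and those with 2 replicates a group, so depth and replicate number cannot be told apart as limits there.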
